A study of Torulaspora delbrueckii with 9 samples.

Results

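Orc2 and Orc4 are subunits of the origin recognition complex (ORC), and their chromatin immunoprecipitation (ChIP-seq) peak lists from the budding yeast Torulaspora delbrueckii were compared with each other. The members are the 4 peak lists, of 6 lists and 9 samples in the series, in which the immunoprecipitated subunit carried a V5 tag and the mock immunoprecipitate was the control. Orc2 was tagged in strains LRY3142 (library 1) and LRY3143 (library 2), and Orc4 in strains LRY3138 (library 1) and LRY3139 (library 2). The mock came from the untagged strain JRY10156, whose label gives no antibody. All cultures were grown at 30 °C in rich glucose medium, diluted and regrown before harvest, and cross-linked for 1 h in 1% formaldehyde. The 2 libraries of a subunit are technical replicates per the series' design text, although the strain labels differ, so the spread between them may be technical. Every peak name in the 4 lists holds the word Mock, but the strain number of the control in those names differs from the one in the label. The tagged proteins themselves cannot be checked from peak lists. The lists held 1337 peaks, and peaks that overlapped by 1 bp or more were merged into 475 regions.

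ORC marks the places where chromosomes can start to replicate and loads the MCM helicase there. In Saccharomyces cerevisiae, Orc2 and Orc4 sit in the same ring-shaped assembly around origin DNA together with Orc1, Orc3 and Orc5. Orc4 of that species carries a helix that reaches into the DNA groove and helps the complex to recognise its sequence. ChIP with either subunit would read the position of the same complex if it is built alike in T. delbrueckii, which peak lists cannot show. A peak's summit is the position of its highest signal. Roles of genes named below are those of their Saccharomyces namesakes.

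The lists differed more within Orc4 than between the subunits. Orc2 library 1 had 339 peaks and library 2 had 342, and Orc4 library 1 had 408 and library 2 had 248. The counts of Orc2 lie between those of the Orc4 libraries. The mean difference, Orc2 minus Orc4, was 12.5 peaks and lay within the spread of the libraries. An exact two-sided permutation of the 4 libraries gave p = 1, and 0.333 is the smallest p that its 6 splits allow. Median peak widths were 602 and 573 bp for Orc2, and 597 and 776.5 bp for Orc4. Median fold enrichment over the mock, the authors' value per peak, was 7.20 and 6.64 in the Orc2 lists and 3.84 and 10.8 in the Orc4 lists. Orc4 library 1 thus had the longest list with the lowest median, and Orc4 library 2 the shortest with the highest. These medians cover different sets of peaks. At the 201 regions with exactly 1 peak in each of the 4 lists, the order was reversed. There the median fold enrichment was 15.7 in Orc4 library 1 and 11.6 in Orc4 library 2, against 12.7 and 12.9 in Orc2 libraries 1 and 2. Read depth is unknown.

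The strongly enriched regions of each subunit were all listed for the other. Of the 475 regions, 223 were in all 4 lists, 261 were in both Orc2 lists and 231 in both Orc4 lists. The 223 made up 85.4% of the regions in both Orc2 lists and 96.5% of those in both Orc4 lists. With a peak in at least 1 list of the other subunit, the shares were 96.9% and 99.1%. All 4 lists share the mock, so regions that it leaves high or low are common to them.

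Presence in the other subunit's lists was incomplete in the weakest regions alone. Regions in both Orc2 lists were sorted by the lower of their 2 fold enrichments into 4 bins of near-equal size. All 66, 65 and 65 regions of the 3 stronger bins, with a minimum of at least 3.95, were in both Orc4 lists. In the weakest bin, from 1.41 to 3.87, 27 of 65 were in both Orc4 lists, 30 were in 1 and 8 were in none. In the same sort by Orc4, all 58 regions in each of the 3 stronger bins, with a minimum of at least 5.77, were in both Orc2 lists. In the weakest Orc4 bin, from 1.47 to 5.75, 49 of 57 were in both Orc2 lists, 6 were in 1 and 2 were in none. The sort is by strength, on which passing the peak threshold also depends.

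**Figure D1:**
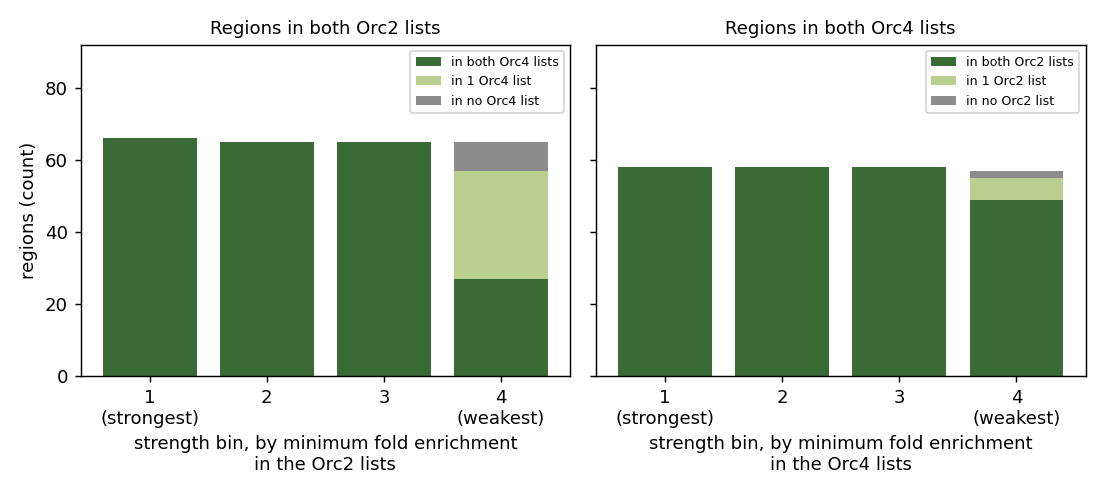
Regions in both lists of a subunit, counted (vertical axis) in 4 bins of falling minimum fold enrichment (horizontal axis), Orc2 on the left and Orc4 on the right; colours give presence in the other subunit's lists. The 3 stronger bins are in both lists of the other subunit throughout, and in the weakest Orc2 bin 27 of 65 regions are.

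Regions missing from at least 1 list were weak, with fold enrichments of at most 4.43, and were spread unevenly over the lists. All 30 regions in both Orc2 lists and 1 Orc4 list had their Orc4 peak in library 1. Their median fold enrichment was 2.11 in the Orc2 lists and 2.25 in Orc4 library 1. The strongest lay between UGA3 and UPS1 on chromosome 3 (334350 to 334753), with 4.43 and 2.42 in the Orc2 lists and 3.49 in Orc4 library 1. Of the 147 regions in a single list, 25 and 28 were in Orc2 libraries 1 and 2, and 88 and 6 in Orc4 libraries 1 and 2. Summits between genes were found in 202 of the 223 regions in all 4 lists (90.6%), 5 of the 6 in 1 Orc2 list and both Orc4 lists (83.3%), 34 of the 59 in 1 list of each subunit (57.6%), 10 of the 30 in both Orc2 lists and 1 Orc4 list (33.3%), 16 of 53 in 1 Orc2 list alone (30.2%) and 42 of 94 in 1 Orc4 list alone (44.7%).

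The 8 regions in both Orc2 lists and no Orc4 list were weak, and 5 of them had their mean summit in a gene. The first by minimum fold enrichment lay over the tRNA gene TDEL0Ftrna5L (chromosome 6, 508578 to 508825), with 2.65 and 2.97 in Orc2 libraries 1 and 2. The second lay in MLP2, a gene of the nuclear pore basket (chromosome 2, 389745 to 389991; 2.39 and 2.42). The third lay in ORC1, the gene of another ORC subunit (chromosome 4, 164731 to 167729). Its peak was 2999 bp wide with 4.04 in library 1 and 165 bp wide with 2.17 in library 2, and the summits were at 165681 and 167106, so the 2 libraries did not share a summit there. The fourth lay between TDEL0C06990 and the mating-type gene HMLALPHA2 (chromosome 3, 1273478 to 1273775), with 3.13 and 2.02. The others lay between RPS16B and TDEL0G03170 (chromosome 7, 591732 to 592017), between VID24 and ROX1 (chromosome 3, 893067 to 893303), in TDEL0G04760 (chromosome 7, 869865 to 870321) and in the peptide transporter gene PTR2 (chromosome 2, 402028 to 402510). The lower fold enrichment of these last 4 ranged between 1.71 and 1.94. With a −log10 q of at least 10 asked of every peak, 0 regions met this description.

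The 2 regions in both Orc4 lists and no Orc2 list were of similar strength. The first lay in TDEL0D00100 near the left end of chromosome 4 (2721 to 3128), with 3.01 and 2.72 in Orc4 libraries 1 and 2. The next region toward that end (280 to 2422) was in all 4 lists, with fold enrichments of 9.65 to 25.2. The second lay between CLD1 and the tRNA gene TDEL0Ftrna4Y on chromosome 6 (627459 to 627827), with 2.63 and 2.1. With a −log10 q of at least 10 asked of every peak, this count was also 2. The region beside TDEL0Ftrna4Y, with a −log10 q of 3.44 in Orc4 library 2, was then not among them. With no such threshold, a further 6 regions were in both Orc4 lists and 1 Orc2 list, which was Orc2 library 2 at 5 of them. The exception lay between the mating-type genes HMLALPHA2 and HMLALPHA1 (chromosome 3, 1274203 to 1274661). It had 2.36 in Orc2 library 1, and 3.12 and 2.19 in Orc4 libraries 1 and 2. The next region to its left, between TDEL0C06990 and HMLALPHA2, was in both Orc2 lists and no Orc4 list, as given above. Counts in both directions depended on single lists. When 1 list was left out, presence in the remaining list of that subunit was counted as presence in both. Regions of Orc2 without Orc4 numbered 42 without Orc4 library 1, and regions of Orc4 without Orc2 numbered 90 without Orc4 library 2. The first count was 36 without Orc2 library 1 and 33 without Orc2 library 2, and the second was 7 without Orc2 library 2 and 8 without Orc4 library 1.

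Summits, widths and ranks were compared at the 201 regions with exactly 1 peak in each of the 4 lists; the other 22 of the 223 had several peaks in at least 1 list. The summits of the subunits lay close together. The mean of the Orc2 summits minus the mean of the Orc4 summits was within 20 bp at 120 of 201 regions (59.7%), within 50 bp at 172 (85.6%) and over 100 bp away at 6. The median absolute offset was 16 bp (quartiles 6 and 33 bp). The median distance between the 2 libraries of the same subunit was 10 bp for Orc2 and 9 bp for Orc4. An offset of means and a distance between libraries are different quantities, so the separation of the 4 summits is given region by region below.

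In signed terms the offset went in both directions along the chromosomes. Orc2 lay to the left of Orc4, toward lower coordinates, at 110 regions, to the right at 86 and at 0 offset at 5. The median was −2.5 bp, and the medians of the 4 pairs of an Orc2 and an Orc4 library were between −1 and 0 bp. The value was the most extreme of the 6 splits (exact permutation p = 0.333, the smallest these libraries allow), so it could not pass a threshold. The gene table used gives no strand. Measured toward the nearer of the 2 neighbouring genes, at the 182 regions with the summit between genes, the median was −2.5 bp (exact permutation p = 0.333), and at the 16 regions within 20 kb of a chromosome end it was −2 bp toward the end (p = 0.333). The value toward the end changed sign under 3 alternatives, reaching 8 bp with equal numbers of peaks per list.

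At many regions the sign of the offset was the same in separate pairs of libraries. At 102 of 201 regions (50.7%) both Orc2 summits lay on the same side of both Orc4 summits, with 59 (29.4%) to the left and 43 (21.4%) to the right. Among the 173 regions where neither pair of same-numbered libraries had an offset of 0, both pairs gave the same sign at 123 (71.1%). Across the 201 regions the offsets of these pairs, which share no library, had a Spearman's rho of 0.47 and a Pearson's r of 0.25. For the other way of pairing the libraries the values were 0.58 and 0.49. All these values share the mock, and regions are not replicates.

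**Figure D2:**
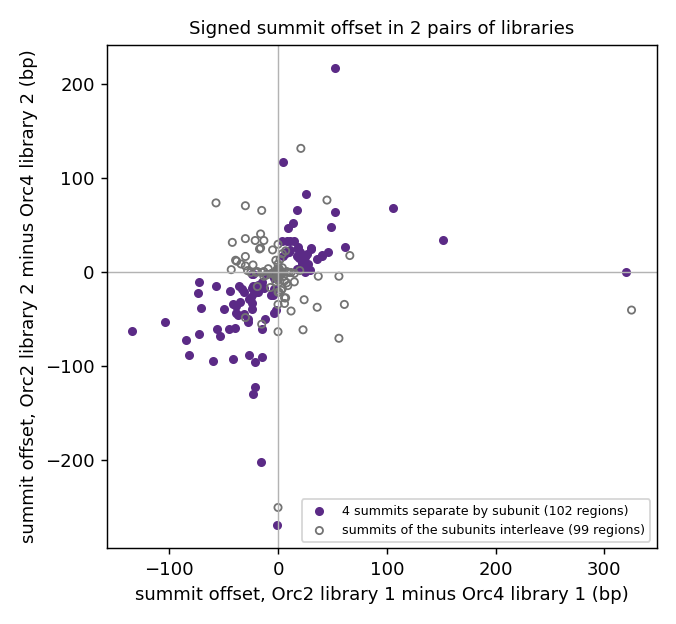
Signed summit offset in bp of Orc2 library 1 minus Orc4 library 1 (horizontal axis) and of Orc2 library 2 minus Orc4 library 2 (vertical axis), 1 point per region. Filled points are the 102 regions where the summits separate by subunit and open points the 99 where they interleave; most points lie near the origin, with filled ones in the lower left and upper right.

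A limma fit across the 201 regions, with Benjamini-Hochberg adjustment over all of them, called 4 offsets (1.99%) at an adjusted p under 0.05, and 51 (25.4%) had an unadjusted p under 0.05. In all 4, Orc2 lay to the left. Between ADK1, an adenylate kinase gene, and MSC3 (chromosome 2, 348807 to 350381), the summits were at 349500 and 349505 in the Orc2 lists and at 349582 and 349593 in the Orc4 lists. The silencing gene SIR4 lies within 1000 bp of this region. The offset was −85 bp ± 6.33 (SE, limma adjusted p = 0.0368). Between the tRNA gene TDEL0Btrna15V and TDEL0B07070 (chromosome 2, 1246603 to 1247878), the Orc2 summits were at 1246936 and 1246942 and the Orc4 summits at 1247021 and 1247014. The offset was −78.5 bp ± 5.51 (limma adjusted p = 0.0368).

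The remaining called offsets were on chromosomes 3 and 5. In FRS1, a phenylalanyl-tRNA synthetase gene (chromosome 3, 92173 to 92477), the Orc2 summits were at 92289 and 92290 and the Orc4 summits at 92362 and 92355. The offset was −69 bp ± 4.98 in a weak region with a minimum fold enrichment of 2.28. Between the succinate dehydrogenase gene SDH1 and the vacuolar transporter gene AVT3 (chromosome 5, 706185 to 707172), both Orc2 summits were at 706733, against 706789 and 706793 for Orc4. The offset was −58 bp ± 4.41, and limma's adjusted p was 0.0368 for both regions. The summits of the subunits did not overlap in any of these 4 regions, and the offsets stayed between −90.5 and −56 bp when 1 library was left out. All 4 calls were lost with the replicate number as a block (limma adjusted p = 0.313). With 1 library left out, 1 subunit has a single library, so a fit there cannot decide whether the calls hold.

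The largest offsets with separate summits were mostly at weak regions where the libraries of a subunit also disagreed. At the left end of chromosome 1, beside TDEL0A00100 (430 to 964), the Orc2 summits were at 806 and 700 and the Orc4 summits at 486 and 699. The summits of the second libraries lay 1 bp apart there, so the offset of 160.5 bp (SE 94.8, limma adjusted p = 0.431) rested on the first. Between TVS1 and the tRNA gene TDEL0Atrna10S (chromosome 1, 1298963 to 1299826), Orc2 library 2 alone stood apart, with summits at 1299610 and 1299364 for Orc2 and 1299611 and 1299633 for Orc4, an offset of −135 bp (limma adjusted p = 0.516). Between the histone deacetylase gene HOS1 and the spermidine synthase gene SPE3 (chromosome 3, 903059 to 903385), the Orc2 summits were at 903158 and 903304 and the Orc4 summits at 903106 and 903086, an offset of 135 bp (SE 58.8, limma adjusted p = 0.308). Further offsets were −109 bp between TDEL0Gtrna6E and HRI1 on chromosome 7, 93.5 bp in the tRNA methyltransferase gene TRM1 on chromosome 6 and 87.5 bp between CYB2 and TDEL0Dtrna1N on chromosome 4, with limma adjusted p-values of 0.291 to 0.470.

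One of the largest offsets was at a region of middling strength, with fold enrichments of 9.50 and 14.9 for Orc2, and 18.0 and 16.3 for Orc4. Between PBP4 and FBP1, a gluconeogenesis gene (chromosome 5, 287712 to 289114), the Orc2 summits were at 288265 and 288319 and the Orc4 summits at 288399 and 288381. The offset was −98 bp ± 23.0 (limma adjusted p = 0.144). The mean shift of the left edge, Orc2 minus Orc4, was −74.5 bp and that of the right edge −230.5 bp. Both edges thus lay to the left as the summit did. At the called region between ADK1 and MSC3 the left edge lay to the right (226 bp) and the right edge to the left (−13.5 bp). The other called regions had left and right edge shifts of −35 and −2 bp beside TDEL0Btrna15V, and −9.5 and −27.5 bp in FRS1. Between SDH1 and AVT3 they were −67 and −101 bp.

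At the 6 strongest regions the offsets were at most 41 bp in absolute size. The region flanked by CIR1 and SER2, a gene of serine biosynthesis (chromosome 5, 930486 to 931637), had the highest fold enrichment of the compared regions in all 4 lists. There both Orc2 summits were at 930945 and the Orc4 summits at 930948 and 930947. Between the mismatch repair gene MSH3 and CDC39 (chromosome 1, 1371132 to 1372205), the summits were at 1371775 and 1371776 for Orc2 and at 1371776 in both Orc4 lists. Both regions were within 3 bp over all 4 lists. Between HRI1 and ULS1 (chromosome 7, 680616 to 682235), the Orc2 summits were at 681246 and 681243, and the Orc4 summits at 681283 and 681288. That offset was −41 bp ± 4.72 (SE, limma adjusted p = 0.0589), while the libraries of a subunit lay 3 bp apart for Orc2 and 5 bp apart for Orc4.

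The remaining 3 of the 6 strongest regions varied. Beside TDEL0A08060, the last gene before the right end of chromosome 1 (1416590 to 1417938), the Orc2 summits were at 1416950 and 1416948 and the Orc4 summits at 1416931 and 1416933, which put Orc2 17 bp to the right (limma adjusted p = 0.148). Between the tRNA gene TDEL0Btrna12A and MRPL3 (chromosome 2, 1169823 to 1170667), Orc2 lay 35.5 bp to the left (limma adjusted p = 0.253). Between SFP1, a regulator of ribosome biogenesis, and DUS3 (chromosome 5, 216603 to 217886), 3 of the 4 lists had the summit at 217222, and Orc2 library 2 had it at 217252.

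Besides MSH3 and CDC39, 3 regions of the strongest bin were named for the smallest spread, with all 4 summits within 1 bp. They lay between SPO22 and AIM9 (chromosome 8, 298914 to 299962; summits at 299583 or 299584), between TDEL0Btrna14G and TDEL0B06280 (chromosome 2, 1110297 to 1111107; 1110588 or 1110589) and between BAR1 and RIB5 (chromosome 8, 446330 to 447611; 446907 or 446908). These were chosen for their small spread. Offsets were largest in the weakest regions, where libraries of the same subunit also lay farthest apart. In 4 bins of falling minimum fold enrichment over the 4 lists, the median absolute offset was 14.5, 11.5, 18.8 and 34.5 bp. The median distance between Orc2 libraries was 3, 9.5, 7.5 and 29 bp, and between Orc4 libraries 4, 4.5, 15 and 25 bp. Summits separated by subunit at 29 of 51, 20 of 50, 28 of 50 and 25 of 50 regions of these bins.

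**Figure D3:**
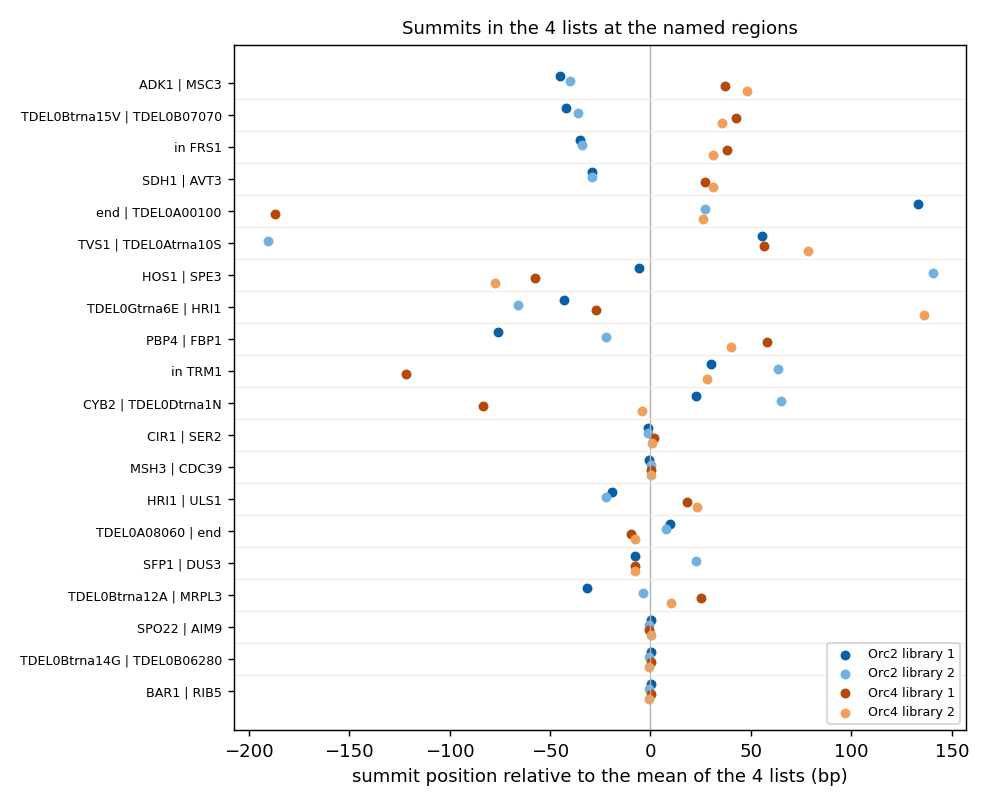
Summit position in each of the 4 lists relative to their mean in bp (horizontal axis) at the named regions (rows, by neighbouring genes), with the 4 called regions at the top, then the largest offsets, the strongest regions and those of smallest spread. The colours stand together by subunit in the top 4 rows, while 1 library stands apart at several of the next.

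Peak edges gave a second, related reading of position. The left edge of Orc2 peaks lay inside that of Orc4 peaks at 134 of 201 regions (median shift 21.5 bp to the right), and the right edge lay inside at 151 (median −29.5 bp). Both Orc2 edges lay inside at 100 regions and both outside at 16. Both edges were shifted to the right at 34 and to the left at 51. The centre of the peak moved in the same direction as the summit at 122 regions and in the opposite direction at 74, with a Spearman's rho of 0.31 and a Pearson's r of 0.24 across the 201 regions. Edges and summits come from the same reads. Edge shifts were taken from the mean of both Orc4 lists, whose median widths here were 866 bp in library 1 and 784 bp in library 2.

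Orc2 peaks were narrower than Orc4 peaks at most regions, mainly against Orc4 library 1. Median widths at the 201 regions were 776 and 744 bp in the Orc2 lists, and 866 and 784 bp in the Orc4 lists. Orc2 peaks were narrower on average at 154 regions (76.6%), with a median ratio of 0.914 (median log2 ratio −0.13). Exact permutation of the libraries gave p = 0.667, so the median ratio lay within the spread of the libraries. Widths separated by subunit at 71 regions (35.3%), with both Orc2 widths below both Orc4 widths at 67 (33.3%) and above them at 4 (1.99%). Against Orc4 library 1 the median log2 ratio was −0.21 for Orc2 library 1 and −0.23 for Orc2 library 2, and against Orc4 library 2 it was 0.01 and −0.05. The Orc4 libraries differed from each other by 0.22 in the median. Dividing each width by its library's median sets the median log2 ratio near 0 by construction (−0.01, with Orc2 peaks narrower at 106 of 201 regions), so the scaled widths do not tell which library the difference comes from. Without Orc4 library 1 the median log2 ratio was −0.04.

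**Figure D4:**
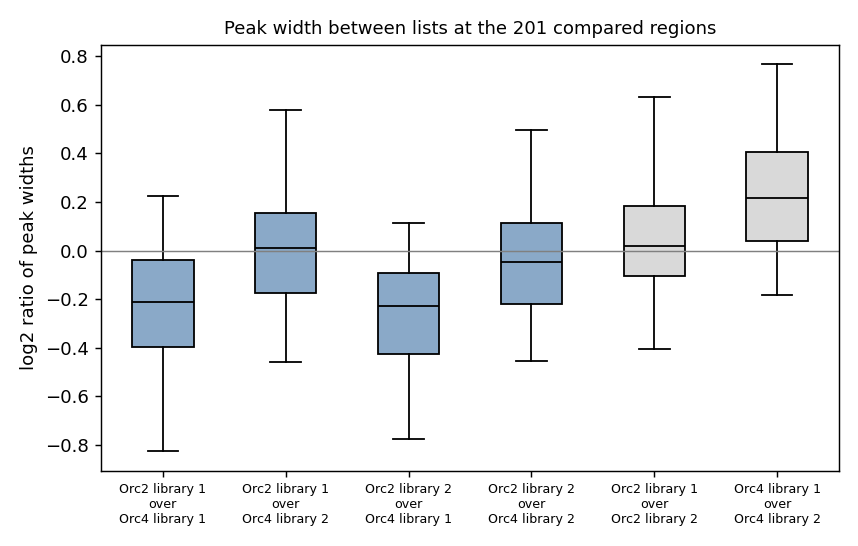
Log2 ratio of peak widths at the 201 compared regions (vertical axis) for the 4 pairs of an Orc2 over an Orc4 library (blue) and the 2 pairs within a subunit (grey); boxes are quartiles, lines medians and whiskers the 5th and 95th percentiles. The medians against Orc4 library 1 are −0.21 and −0.23, and the difference within Orc4 is as large, at 0.22.

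Limma called 0 of 201 width differences (0%), and 12 (5.97%) had an unadjusted p under 0.05. The 6 largest ratios with separate widths were all narrower in Orc2. In the ribosomal protein gene RPS13 (chromosome 2, 760453 to 760994), widths were 295 and 372 bp for Orc2 and 523 and 509 bp for Orc4, a ratio of 0.642. Beside MCM7, a subunit gene of the MCM helicase, and RGL1 (chromosome 2, 558456 to 559358), they were 563 and 541 bp for Orc2 and 903 and 726 bp for Orc4. At the strong region between HRI1 and ULS1 they were 1019 and 867 bp for Orc2 and 1620 and 1181 bp for Orc4. The others lay between CAR2 and DIF1 on chromosome 4, ENP1 and USE1 on chromosome 2, and TDEL0F00160 and TDEL0F00170 on chromosome 6. The limma adjusted p was 0.732 to 0.772 for these 6.

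The order of enrichment was nearly the same for both subunits. Each region was given the percentile rank of its fold enrichment among the 201 within a list, from 0 for the lowest to 100 for the highest. The median absolute difference in mean rank, Orc2 minus Orc4, was 3.75 points, and it was over 10 points at 21 regions (10.4%). Between the libraries of a subunit the median absolute difference was 4 points for Orc2 and 3 for Orc4. A difference of mean ranks and a difference between single libraries are different quantities, so their sizes are not compared directly. Ranks separated by subunit at 97 regions (48.3%), with both Orc2 ranks above both Orc4 ranks at 48 (23.9%) and below them at 49 (24.4%). Spearman's rho of fold enrichment across the regions was 0.954 to 0.975 between an Orc2 and an Orc4 list, 0.973 between the Orc2 lists and 0.986 between the Orc4 lists.

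Limma called 0 of 201 rank differences (0%), and 37 (18.4%) had an unadjusted p under 0.05. The 6 largest with separate ranks went in both directions. Between PBP4 and FBP1 the ranks were 35.5 and 57.0 for Orc2, and 58.0 and 71.5 for Orc4, a difference of −18.5 points ± 9.71 (SE, limma adjusted p = 0.385). Between SPC97, a gene of the spindle pole, and PUP2, a proteasome gene (chromosome 7, 179042 to 180466), they were 61.0 and 72.0 for Orc2, and 81.5 and 87.5 for Orc4. Between TDEL0G04800 and TDEL0G04810 (chromosome 7, 877551 to 878747) they were 38.5 and 51.0 for Orc2, and 62.5 and 61.5 for Orc4. Orc2 was lower in these 3.

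Orc2 ranked higher in the other 3 of the 6 largest. Between TIF3, a translation initiation gene, and ORC4 itself (chromosome 8, 92199 to 92847), ranks were 49.5 and 54 for Orc2, and 40 and 28.5 for Orc4, a difference of 17.5 points ± 4.88 (limma adjusted p = 0.224). Between SDH1 and AVT3, which also had a called offset, they were 68.0 and 64.5 for Orc2, and 46.5 and 53.0 for Orc4. Between TDEL0C00160 and TDEL0C00170 (chromosome 3, 17986 to 19339) they were 72.5 and 69.0 for Orc2, and 57.5 and 52.5 for Orc4. The 6 had limma adjusted p-values of 0.220 to 0.385. At the region between SDH1 and AVT3 the difference was 16.5 points by fold enrichment, but 5.75 points with regions ranked by −log10 q.

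**Figure D5:**
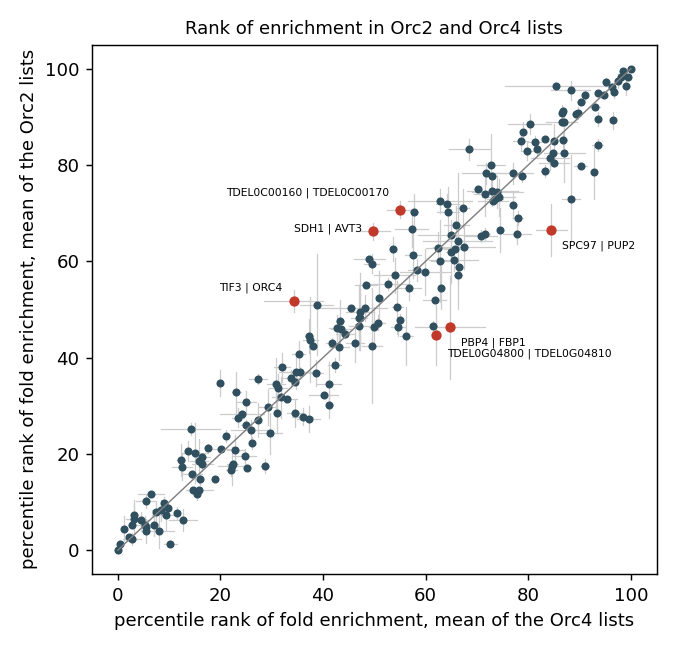
Percentile rank of fold enrichment at the 201 compared regions, mean of the Orc2 lists (vertical axis) against mean of the Orc4 lists (horizontal axis); grey lines join the 2 libraries of a subunit, the diagonal marks equal ranks, and the 6 largest differences with separate ranks are red. Points follow the diagonal, and the red ones differ by −18.5 to 17.5 points, Orc2 minus Orc4.

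Gene lists described where the compared regions lay. Of 193 tRNA genes, transcribed by RNA polymerase III, at least 1 lay within 1000 bp of 109 of the 475 regions. Of these 109 regions 54 were in all 4 lists, against 223 of 475 over all regions, and 47 could be compared. Their median absolute offset was 23.5 bp, against 16 bp over all 201, and summits separated by subunit at 25 of them (53.2%, against 50.7%). The median distance between libraries there was 13 bp for each subunit. Orc2 peaks were narrower at 38 of 47, with a median log2 ratio of −0.12, against 154 of 201 and −0.13 over all compared regions. For the 16 compared regions within 20 kb of an end, the median absolute offset was 17.8 bp and summits separated at 11 (68.8%).

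Of 7 regions within 1000 bp of a gene of replication initiation, 4 were in all 4 lists and could be compared. Such small counts are not read against the 223 of 475 over all regions. They lay beside MCM7, MCM3, ORC5 and ORC4, and absolute offsets were 8 to 12.5 bp. Beside ORC5 (chromosome 3, 1092034 to 1093054) the Orc2 summits were at 1092579 and 1092582 and the Orc4 summits at 1092583 and 1092600. Beside ORC4 they were at 92453 and 92455 for Orc2 and at 92468 and 92465 for Orc4. Of 3 regions near silencing genes, 2 could be compared, and summits separated in both, against 50.7% of all compared regions. Besides the one near SIR4 described above, it was the region between RAD27 and ABF1, the gene of a DNA-binding factor (chromosome 1, 424397 to 425418), with Orc2 summits at 424995 and 424993 and Orc4 summits at 425034 and 425036, an offset of −41 bp. Of 5 regions near histone genes, 2 were in all 4 lists and 1 could be compared, near HTB2 (chromosome 4, 763485 to 764357), with an offset of −3.5 bp. Of the 7 compared regions of these 3 lists, 1 was called for its offset, the one near SIR4, against 1.99% of all compared regions.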

How the data were processed

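Each peak list was made by the authors from 1 library. Per the submitters' processing notes the tools included MACS2 2.2.7.1, Bowtie2 2.3.4.1 and cutadapt 2.10, while their settings and the build were not given in the sources used here. From the deposited lists, the columns used were start, end, summit offset, fold enrichment (a ratio to the mock) and the −log10 q-value. The authors' deposited score column was not analysed. The word subsample in the peak names has no explanation in the labels. Sequences, numbered in the order of their names, were paired with the 8 numbered chromosomes of a RefSeq gene table (assembly ASM24337v1), which served for gene names and neighbours alone. As a check, 66.4% to 77.4% of a sequence's summits lay between genes of its own chromosome, against at most 35.0% on any other chromosome that was tried. Only chromosomes long enough to hold the peaks were tried, which left 0 others for sequence 1 and 1 for sequence 2. The check could therefore not fail for sequence 1. Of the 5174 genes in the table, 4126 have a symbol other than the locus name.

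Positions are 1-based, and the summit is column 2 plus column 10. Summit position, log2 width and percentile rank were fitted with limma 3.58.1 (R 4.3.3) across all compared regions, Orc2 minus Orc4, with 2 residual degrees of freedom per region and Benjamini-Hochberg adjustment. The fit was tested on simulated data, and the criteria of that test were revised before it passed, since differences of modest size were rarely recovered with 2 libraries against 2. A difference that was not called may therefore exist. Single values were tested by exact two-sided permutation of the 4 libraries. Named regions are those in both lists of 1 subunit alone, those of highest minimum fold enrichment, those of smallest summit spread, the largest offsets, width ratios and rank differences among regions whose libraries separate (too few were called), the 4 called offsets and the compared regions of the gene lists. Regions beside UGA3 and HMLALPHA1 and those with several peaks were chosen after their values were seen. The members, lists and rules were chosen with earlier results of these data known. Peak lists hold no read counts, so depth is unknown.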

Additional observations from a re-analysis of the deposited data

How the results depend on the processing

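The count of regions in all 4 lists stayed within 1.5 times of 223 in every alternative that kept the 4 lists (199 at −log10 q of at least 10). With 1 library left out, regions in all of the remaining lists numbered 225 to 253, which is a looser requirement. The median log2 width ratio and the median signed offset kept their sign in all alternatives run. Their ranges were −0.23 to −0.04 and −3 to −1 bp when 1 library was left out. The width ratio was −0.01 with widths divided by the library median, which sets it near 0 by construction. Regions of Orc2 without Orc4 numbered 8, against 0 at −log10 q of at least 10, 17 with summits within 200 bp as the rule for joining peaks, and 8 to 42 with 1 library left out. Regions of Orc4 without Orc2 numbered 2, and also 2 at −log10 q of at least 10. They numbered 4 with 248 peaks taken from each list and 3 to 90 with 1 library left out. The difference in peaks per list changed sign at −log10 q of at least 10 (−9) and ran from −67.5 to 92.5 with 1 library left out. The median offset toward a chromosome end was 5.5 bp at −log10 q of at least 10, 8 bp with equal numbers of peaks, and −15.75 to 2.25 bp with 1 library left out. The causes were not tested.

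Called offsets numbered 4, against 13 at −log10 q of at least 10 (2 of them to the right) and 9 with equal numbers of peaks (1 to the right). Over all 223 regions they numbered 5 (1 to the right). With 1 library left out, 1 subunit has a single library, so no count of called offsets is given. With the replicate number as a block the count was 0 (30 unadjusted), and no width or rank difference was called with or without the block; exact permutation within numbers gave p = 0.5, the smallest it allows, for the median offset and width ratio. The labels do not say that the numbers pair the libraries, and with 2 numbers the data do not settle it. Deviations of library 1 of both subunits had a Pearson's r of −0.25 for summits, −0.07 for widths and 0.23 for ranks. Limma called 0 width and 0 rank differences under every alternative that kept the 4 libraries, with 7 to 16 and 36 to 43 at an unadjusted p under 0.05. The planned offset along transcription was not run, since the gene table gives no strand; the offset toward the nearer gene was added after seeing the data.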

Other observations

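The 22 regions in all 4 lists with several peaks in a list were cut into more pieces for Orc2 than for Orc4. They held 44 and 40 peaks in Orc2 libraries 1 and 2, and 24 and 31 peaks in Orc4 libraries 1 and 2. The summed peak width was 26.2 kb in Orc2 library 1 and 28.5 kb in Orc2 library 2, against 35.5 kb in Orc4 library 1 and 25.9 kb in Orc4 library 2. Both Orc2 lists had more peaks than both Orc4 lists at 7 of these 22 regions, and the reverse held at 0. The other 201 of the 223 regions in all 4 lists had 1 peak in every list by definition. The widest, between TDEL0E00260 and TDEL0E00270 (chromosome 5, 50454 to 55071), had 6 and 5 Orc2 peaks, and 1 and 4 Orc4 peaks. Between SOK1 and the histone H4 gene HHF1 (chromosome 4, 784736 to 786875), each Orc2 list had 3 peaks, over 792 and 1400 bp, and each Orc4 list had 1 peak, of 2140 and 1041 bp. Between ARG80 and MCM1, both regulators of transcription (chromosome 2, 1234259 to 1235696), Orc2 had 2 and 1 peaks and each Orc4 list had 1. These regions were counted after their values were seen, and the differences were not tested.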
